A study of Mus musculus with 16 samples.

Results

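The mRNAs described here encode the cytoplasmic polyadenylation element-binding (CPEB) proteins of the mouse, Cpeb1, Cpeb2, Cpeb3 and Cpeb4. They were chosen by gene symbol, with earlier results of these data known. They are 4 of the 14925 genes and 14 of the 26892 distinct 3′-UTR regions that carried a symbol in the deposited tables. Cpeb1 had 3 regions, Cpeb2 had 2, Cpeb3 had 7 and Cpeb4 had 2. They were measured by RIP-seq, in which RNA that an antibody pulls down with its protein is sequenced, in bone marrow-derived macrophages (BMDMs) of adult mice labelled C57BL/6J 129. The marrow cells had been differentiated in medium conditioned by L cells, which secrete M-CSF. Samples numbered 76 were wild type (WT) and those numbered 73 came from full Cpeb4 knockout (KO) mice. The sample titles do not say what these numbers stand for. Both genotypes were examined untreated and after 9 h with 10 ng/ml of lipopolysaccharide (LPS), a component of bacterial cell walls. For each, crosslinked RNA pulled down by an anti-CPEB4 antibody (RIP) and lysate RNA before the pulldown (Input) were sequenced. The KO serves as the background control of the RIP. Each genotype, treatment and assay had 1 library, run on 2 lanes, so no difference has a replicate check. Genotype cannot be told apart from what the numbers 73 and 76 stand for.

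CPEB proteins bind U-rich cytoplasmic polyadenylation elements (CPEs) in 3′-UTRs. Depending on their partners and their phosphorylation, they keep bound mRNAs with short poly(A) tails and silent, or recruit cytoplasmic poly(A) polymerase and promote translation. CPEB1 is the founding member, best known from the oocyte, and CPEB2, CPEB3 and CPEB4 form a second, closely related group with nearly identical RNA-binding domains.

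The short stretches below show the CPEs and hexamers whose counts are compared between the members. They were read from the mouse genome build GRCm38.p6, which has the coordinates of mm10, and are written 5′ to 3′ on the mRNA strand. The capitals mark the consensus CPEs TTTTAT and TTTTAAT and the polyadenylation hexamers AATAAA and ATTAAA. For Cpeb1 the 30-base window with the most consensus CPEs of the region with the most reads is shown. For the other genes the last hexamer of that region comes first and this window second, and then any hexamer that touches a consensus CPE.
Cpeb1 most consensus CPEs, chr7:81347257-81347286 (-): cttgacttttctTTTTAATttaacgattac
Cpeb2 last hexamer, chr5:43289690-43289719 (+): tgttgactgactAATAAActattaagttat
Cpeb2 most consensus CPEs, chr5:43289147-43289176 (+): ttttgggTTTTATTTTATTTTAATagtagt
Cpeb3 last hexamer, chr19:37021301-37021330 (-): ggacaattggatAATAAAacgacagaatga
Cpeb3 most consensus CPEs, chr19:37021506-37021535 (-): ggAATAAAttaaTTTTATgatgctaattct
Cpeb3 hexamer touching a CPE, chr19:37023953-37023982 (-): gttgctgcatgcAATAAATTTTATatccaa
Cpeb4 last hexamer, chr11:31935604-31935633 (+): agatgttgaatgAATAAAacttttaactca
Cpeb4 most consensus CPEs, chr11:31935133-31935162 (+): attcaactgTTTTATtTTTTATatttttaa
Cpeb4 hexamer touching a CPE, chr11:31933763-31933792 (+): ataaataaTTTTAATAAATTTTATtttctt
Cpeb4 hexamer touching a CPE, chr11:31935410-31935439 (+): aattcattTTTTATTAAAgtcattttcacg
Cpeb2, Cpeb3 and Cpeb4 have AAUAAA as their last hexamer, with no consensus CPE in the same window. Cpeb2 has 3 overlapping consensus CPEs in one window, Cpeb3 has 1 hexamer that abuts a consensus CPE, and Cpeb4 has 2 hexamers that touch one.

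The region with the most reads of each gene is the one described throughout unless another length is given. In mm10 these are the 3′-UTR of Cpeb4 at chr11:31931533-31935634 on the + strand (4102 bases, ENSMUST00000109412), of Cpeb3 at chr19:37021291-37024859 on the - strand (3569 bases, ENSMUST00000079754), of Cpeb2 at chr5:43285947-43289724 on the + strand (3778 bases, ENSMUST00000114065) and of Cpeb1 at chr7:81347026-81348340 on the - strand (1315 bases, ENSMUST00000098331). Each begins right after the stop codon, and no other gene overlaps any of them in the GENCODE M21 annotation.

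Cpeb2 held 24 consensus CPEs on the mRNA strand and 6 on the opposite strand. The median was 4 among 575 other genes whose main region had a length within 10% of it, and 93.2% of those held at least 1. Cpeb4 held 17 against 8 on the opposite strand, beside a median of 5 in 477 genes of like length, of which 95.4% held at least 1. Cpeb3 held 6 and 8, beside a median of 4 in 641 genes, and Cpeb1 held 4 and 1, beside a median of 1 in 1090 genes. Of the genes of like length, 92.4% (for Cpeb3) and 67.2% (for Cpeb1) held a consensus CPE. So Cpeb2 and Cpeb4 carried more consensus CPEs than 100% and 99.8% of genes of like length, Cpeb1 more than 86.9% and Cpeb3 more than 65.8%. The non-consensus CPEs, which are TTTTAAAT and the variant TTTTACT, the variant TTTTCAT, and the forms TTTTAAGT and also TTTTGT, were counted 25 times in Cpeb2, 18 in Cpeb4, 17 in Cpeb3 and 7 in Cpeb1, beside medians of 6, 6, 5 and 2. The pentamer ATTTA, the core of AU-rich elements, occurred 17 times in Cpeb4, 14 in Cpeb2, 7 in Cpeb3 and 5 in Cpeb1. The medians for like lengths were 7, 6, 5 and 2. The Pumilio-binding element TGTANATA occurred once each in Cpeb1, Cpeb2 and Cpeb3 and was not found on the mRNA strand of Cpeb4. A match of letters is a description of the sequence and not a binding site. Overlapping matches were all counted.

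**Figure D1:**
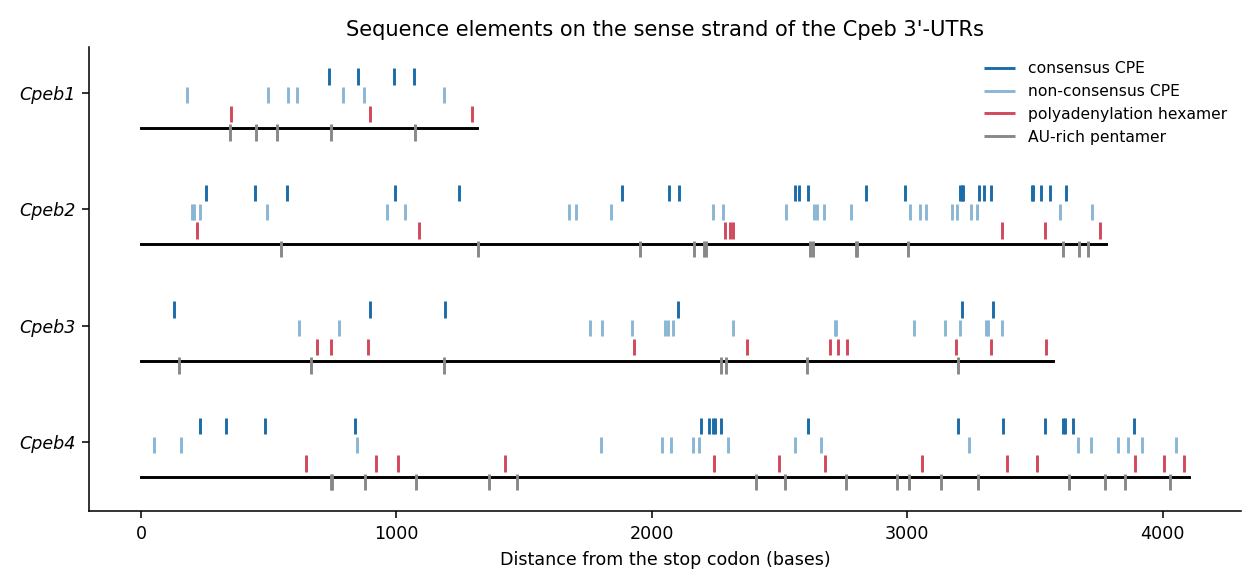
Positions of sequence elements on the mRNA strand of the 4 Cpeb 3′-UTRs, by distance from the stop codon in bases; black lines give the length of the region. Consensus CPEs number 24 in Cpeb2, 17 in Cpeb4, 6 in Cpeb3 and 4 in Cpeb1. Per kb these are 6.35, 4.14, 1.68 and 3.04.

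A read over several isoform regions counts in each of their rows. Summed over the 3′-UTR rows with a symbol, the counts gave totals from 467696 to 2492300 per library. A level is given as CPM, the reads divided by this total and scaled to a common library size, with an exact Poisson 95% interval, which covers counting error only. A log2 ratio is the log2 of the CPM ratio of 2 libraries after adding 1 read to each, with a normal 95% interval from the counts. Since reads can be counted more than once, these sums are not shares of the reads. Set against the library total, they were 27.3% and 31.8% in the KO RIPs, 48.9% and 70.1% in the WT RIPs and 46.4% to 51.1% in the Inputs. Scaling to library totals therefore moved the median log2 ratio of WT over KO RIP over all genes up, by 0.84 without LPS and by 1.14 with it. Scaling with TMM, a trimmed mean of ratios, moved it by 0.24 and 0.33, and median-of-ratios scaling by 0.10 and 0.16. The summed macrophage markers Lyz2, Csf1r, Emr1, Cd68, Itgam and Mertk were at 2105 to 3430 CPM in the Inputs. Of the markers of other cells, 1 of 2 of T cells, 1 of 2 of B cells, 1 of 3 of neutrophils, 1 of 2 of fibroblasts and 2 of 2 of dendritic cells were in the tables, and each list summed to 1.05 CPM or less. In the Inputs the response genes Il1b, Nos2 and Cxcl10 together were at 28.0 (WT) and 18.9 (KO) CPM untreated. With LPS they were at 1232 (WT) and 1470 (KO) CPM.

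Cpeb4, the gene targeted in the KO, had the highest level per length of the family in the WT Inputs. Its 3′-UTR had 121 reads in the WT Input and 69 in the KO Input of untreated cells, and 258 and 79 reads after LPS. These are 130 CPM (108 to 156) against 52.0 CPM (40.5 to 65.9), and 136 CPM (120 to 154) against 52.6 CPM (41.6 to 65.5). Both KO Inputs lay below both WT Inputs, with intervals that did not overlap. Reads of the 3′-UTR were thus still present in the KO. The deleted part of the gene is not given in the sources used here, and a 3′-UTR outside the deleted part does not check the labels. In bulk samples a lower level per cell and fewer cells with the mRNA cannot be told apart.

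Cpeb2, a close relative of Cpeb4, was at 35.5 CPM (24.5 to 49.9) from 33 reads in the untreated WT Input and at 80.7 CPM (66.1 to 97.5) from 107 reads in the untreated KO Input. After LPS it was at 39.0 CPM (30.6 to 49.0) from 74 reads in the WT and 47.9 CPM (37.5 to 60.4) from 72 reads in the KO. Only the untreated KO Input stood apart from the other Inputs, and the remaining 3 overlapped within counting error.

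Cpeb3, the third member of the CPEB2 to CPEB4 group, was at 25.8 CPM (16.6 to 38.4) from 24 reads in the untreated WT Input and 45.3 CPM (34.5 to 58.2) from 60 reads in the untreated KO Input. After LPS it was at 3.16 CPM (1.16 to 6.88) from 6 reads in the WT and 14.6 CPM (9.18 to 22.2) from 22 reads in the KO. The LPS Inputs were below the untreated Inputs of the same genotype, and the KO was above the WT after LPS with intervals that did not overlap.

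Cpeb1, the most distant member, was near the limit of detection. It had 3 reads in the untreated WT Input, 2 in the untreated KO Input and 0 in both LPS Inputs, where a count of 0 allows up to 1.58 CPM (WT) and 1.997 CPM (KO). In the RIPs it had 9 reads (WT) and 0 reads (KO) untreated, and 1 and 0 after LPS. The 9 reads are 5.40 CPM (2.47 to 10.3), below the 6.41 CPM that a count of 0 allows in the much smaller KO RIP, so a difference was not detectable at this depth.

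**Figure D2:**
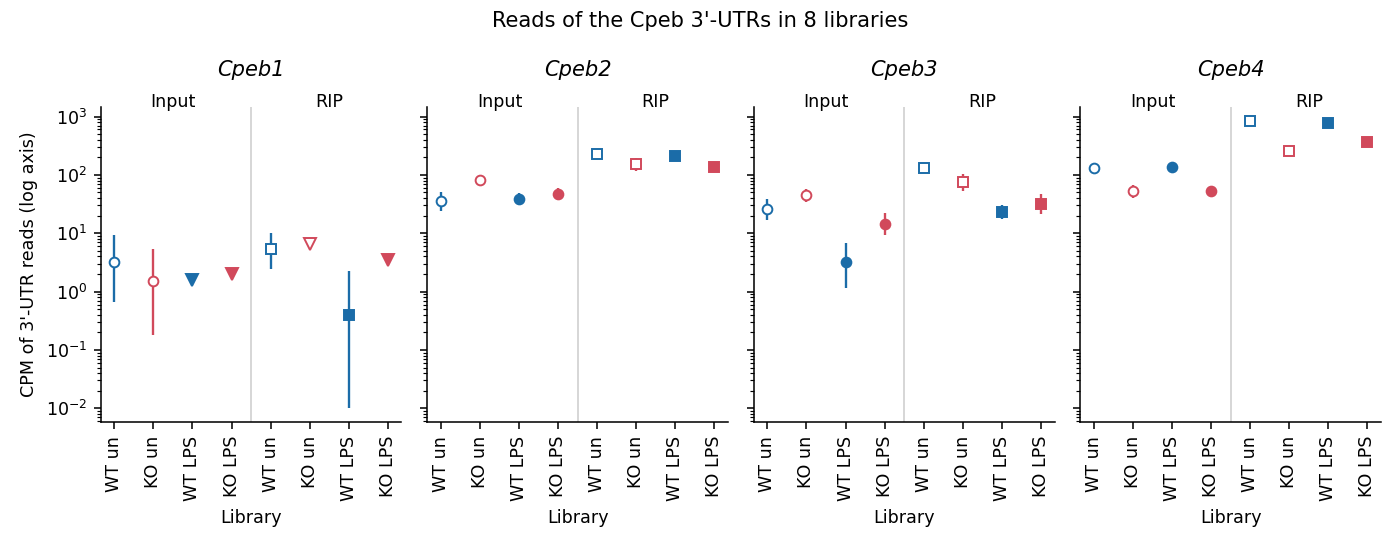
Level of each Cpeb 3′-UTR in the 8 libraries, as CPM on a log axis, with exact Poisson 95% intervals; blue marks WT, red KO, open symbols untreated (un) and filled symbols LPS, and triangles mark 0 reads at the level that 3 reads would give. Cpeb4 is lower in the KO in every pair, and Cpeb3 falls after LPS.

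Levels of different genes were compared per length. In the untreated WT Input, Cpeb4 was at 31.8 CPM per kb (26.3 to 37.9), Cpeb2 at 9.40 (6.47 to 13.2), Cpeb3 at 7.24 (4.64 to 10.8) and Cpeb1 at 2.46 (0.506 to 7.18). Cpeb4 stood above the others, while the intervals of Cpeb2 and Cpeb3, and of Cpeb3 and Cpeb1, overlapped. In the untreated KO Input Cpeb2 led with 21.4 (17.5 to 25.8), and Cpeb4 (12.7, 9.87 to 16.1) and Cpeb3 (12.7, 9.68 to 16.3) did not differ beyond counting error. After LPS the WT order was Cpeb4 at 33.1 CPM per kb (29.2 to 37.5), Cpeb2 at 10.3 (8.11 to 12.96) and Cpeb3 at 0.886 (0.325 to 1.93), with no overlap between neighbours. After LPS in the KO, Cpeb4 (12.8, 10.1 to 15.98) and Cpeb2 (12.7, 9.93 to 15.97) overlapped, and Cpeb3 was below both at 4.10 (2.57 to 6.21). Beside all 13199 genes with a main region of at least 200 bases, the WT Input level of Cpeb4 was higher than that of 76.8% untreated and 77.4% after LPS, and Cpeb3 dropped from above 52.2% to above 32.4%.

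The response to LPS was read from the Inputs, with a chi-square test of the reads of a region against all other 3′-UTR reads of the 2 libraries. A gene was called where at least 1 region passed a p-value threshold of 0.02, either after Benjamini-Yekutieli adjustment with a log2 ratio past 0.5 in size or before it with one past 1.2. Such a test compares the 2 libraries and not the conditions. Of the 3 members tested, 1 was called in each genotype, Cpeb3, which fell in both. Of all genes tested, 17.0% were called lower in the WT and 20.5% in the KO, and 31.3% and 35.6% were called in either direction. The log2 ratio of Cpeb3 was -2.87 (-4.08 to -1.66) in the WT, with an adjusted p-value of 3.40e-06, and -1.59 (-2.28 to -0.90) in the KO, with an adjusted p-value of 0.000109. These correspond to 7.29-fold and 3.01-fold lower levels. In the WT, 2.18% of 8163 genes had a lower ratio than Cpeb3, and in the KO 10.6% of 8250 had. For Cpeb4 the WT ratio was 0.06 (-0.25 to 0.37) and the KO ratio 0.01 (-0.45 to 0.48). Cpeb2 was at 0.11 (-0.47 to 0.70) in the WT and, just short of the threshold, at -0.75 (-1.17 to -0.32) in the KO with an adjusted p-value of 0.0207. The median of all genes was -0.08 in the WT and -0.18 in the KO. The exact test of edgeR, with an assumed biological variation of 0.4, called Cpeb3 in both genotypes. It called 665 of 8178 genes in the WT and 756 of 8260 in the KO. For the region of Cpeb3 with the most reads its unadjusted p-value was 0.00908 in the WT. In the KO it was 0.0898, and the call came from another region.

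The Inputs were also compared between genotypes, which asks whether the level of an mRNA differed in the KO. Cpeb4 is the gene targeted in the KO, so its calls are to be read apart from those of the other members. Untreated, Cpeb4 was called higher in the WT and Cpeb2 lower, where 1.13% and 1.68% of all genes tested were called in these directions and 2.82% in either. After LPS, Cpeb4 was called higher and Cpeb3 lower, where 1.73% and 1.58% of genes were and 3.31% in either direction. For Cpeb4 the WT over KO log2 ratio was 1.31 (0.89 to 1.74) untreated and 1.36 (0.996 to 1.72) after LPS, which are 2.49-fold and 2.56-fold higher levels in the WT. For Cpeb3 it was -0.77 (-1.45 to -0.10) untreated and -2.05 (-3.27 to -0.83) after LPS. After LPS 0.184% of 8151 genes had a lower ratio than Cpeb3, which rested on 6 and 22 reads and was called on its unadjusted p-value of 0.000249. For Cpeb2 it was -1.15 (-1.71 to -0.60) untreated, with an adjusted p-value of 0.0325, and -0.30 (-0.76 to 0.17) after LPS. The call of Cpeb2 came from its 1076-base region alone, with 4 WT and 21 KO reads and an unadjusted p-value of 0.0105. With the exact test of edgeR and an assumed biological variation of 0.4, none of these 4 calls remained. It called 8 of 7850 genes untreated and 8 of 8161 after LPS, so almost no gene of any kind was called. At an unadjusted p-value under 0.05 for the region with the most reads, that test had 0 members untreated and 1 after LPS, Cpeb3.

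In the RIPs Cpeb2 and Cpeb4 ranked high in both genotypes, above 80.2% to 97.7% of genes per length, while Cpeb3 was near the median after LPS, above 51.6% (WT) and 54.5% (KO). Cpeb4 had 1392 reads in the WT RIP and 120 in the KO RIP of untreated cells, and 1920 and 320 reads after LPS. These are 836 CPM (792 to 881), 257 CPM (213 to 307), 770 CPM (736 to 806) and 367 CPM (328 to 410). The WT RIPs were highest and the KO RIPs still exceeded every Input. Cpeb2 had 378 (WT) and 71 (KO) reads untreated, which are 227 CPM (205 to 251) and 152 CPM (119 to 191), and 516 and 120 reads after LPS, which are 207 CPM (190 to 226) and 138 CPM (114 to 165). All 4 RIP levels of Cpeb2 lay above all 4 Input levels. Cpeb3 had 220 (WT) and 35 (KO) reads untreated, which are 132 CPM (115 to 151) and 74.8 CPM (52.1 to 104), and 58 and 28 reads after LPS, which are 23.3 CPM (17.7 to 30.1) and 32.1 CPM (21.3 to 46.4). The LPS RIPs of Cpeb3 lay below the untreated RIPs, as the Inputs did.

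WT RIP was compared with KO RIP to ask which mRNAs associate with CPEB4. For Cpeb4, the gene targeted in the KO, this comparison cannot separate association from the level in the lysate. Its WT over KO log2 ratios in the Inputs were 1.31 untreated and 1.36 after LPS, and input-corrected ratios are given below. Cpeb4 was called higher in the WT RIP untreated, where 6.91% of all genes tested were called higher and 11.4% lower (18.2% in either direction). Cpeb4 and Cpeb2 were called higher after LPS, where 11.0% of genes were called higher and 17.5% lower (28.3% in either). No member was called lower. The log2 ratio of Cpeb4 was 1.69 (1.42 to 1.96) untreated and 1.07 (0.89 to 1.24) after LPS, with 2.33% of 8064 and 8.75% of 8310 genes above it. That of Cpeb2 was 0.56 (0.20 to 0.93) untreated, with an adjusted p-value of 0.125, and 0.58 (0.29 to 0.86) after LPS, with an adjusted p-value of 0.00360. That of Cpeb3 was 0.79 (0.28 to 1.29) untreated, with an adjusted p-value of 0.114, and -0.49 (-1.13 to 0.15) after LPS, a sign that turned to 0.65 with library totals. The median of all genes was -0.10 untreated and -0.04 after LPS. With library totals or TMM, Cpeb2, Cpeb3 and Cpeb4 were all called untreated. These scalings shift every gene alike, and the median of all genes was then 0.75 and 0.14. The shares of all genes called under them are not given here. The exact test of edgeR at a variation of 0.4 called no member, beside 53 of 8086 genes untreated and 120 of 8318 after LPS. At an unadjusted p-value under 0.05 it had 1 member (Cpeb4) untreated and 0 after LPS.

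RIP was then compared with the Input of the same cells. Ribosomal RNA was depleted from the Inputs only, per the labels, which is a difference in preparation shared by all 4 of these comparisons. In the WT, Cpeb2, Cpeb3 and Cpeb4 were called higher in the RIP both untreated and after LPS, where 24.7% and 26.4% of all genes tested were. The shares called lower were 22.8% and 30.2%, and those called in either direction 47.2% and 56.2%. Untreated, the log2 ratios were 2.67 (2.40 to 2.94) for Cpeb4, 2.64 (2.13 to 3.14) for Cpeb2 and 2.30 (1.70 to 2.90) for Cpeb3. After LPS they were 2.50 (2.31 to 2.68), 2.39 (2.04 to 2.74) and 2.68 (1.55 to 3.81). The 3 genes thus ranged from 4.93-fold to 6.42-fold above Input, and their intervals overlapped at both times. From 93.4% to 97.1% of all genes had lower ratios. Cpeb1 was at 0.48 (-1.19 to 2.15) from 9 and 3 reads.

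In the KO, the control for the antibody, Cpeb4 stood apart from Cpeb2 and Cpeb3, whose intervals overlapped. Cpeb4 was at 2.29 (1.87 to 2.72) untreated and 2.79 (2.44 to 3.14) after LPS, or 4.90-fold and 6.92-fold above its KO Input. Cpeb2 was at 0.92 (0.49 to 1.35) and 1.51 (1.096 to 1.93), and Cpeb3 at 0.74 (0.15 to 1.337) and 1.12 (0.33 to 1.91). Untreated, Cpeb2 and Cpeb4 were called higher, and after LPS all 3 were, Cpeb3 by its 1890-base region. The untreated call of Cpeb2 was lost with library totals, TMM and the exact test of edgeR. After LPS the call of Cpeb3 was lost with library totals, and those of Cpeb2 and Cpeb3 with edgeR. Of all genes tested, 15.9% and 18.1% were called higher in the KO RIPs, 9.60% and 12.9% lower, and 25.4% and 30.8% in either direction. The RIP over Input ratio of Cpeb4 thus lay above those of Cpeb2 and Cpeb3 in the KO with no overlap of intervals, and only 2.67% of 7708 genes (untreated) and 1.13% of 7861 (LPS) exceeded it. With library totals the KO ratios were 1.53 and 2.11 for Cpeb4, 0.15 and 0.83 for Cpeb2 and -0.02 and 0.44 for Cpeb3, so that the order was the same and the sign of Cpeb3 turned untreated.

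Subtracting the genotype difference in the Inputs from that in the RIPs, both as WT over KO on the log2 scale, gives an input-corrected ratio, which asks how much of the RIP difference exceeds the difference in the lysate. It was 1.72 (1.05 to 2.38) for Cpeb2 and 1.56 (0.72 to 2.40) for Cpeb3 untreated, and 0.88 (0.33 to 1.42) and 1.56 (0.18 to 2.94) after LPS. All 4 intervals lay above 0, and they correspond to 3.29-fold, 2.95-fold, 1.84-fold and 2.95-fold. They rest in part on the Inputs, whose ratios were below 0. Untreated, the RIP and Input ratios were 0.56 and -1.15 for Cpeb2 and 0.79 and -0.77 for Cpeb3. After LPS they were 0.58 and -0.30 for Cpeb2. For Cpeb3 after LPS the RIP ratio was -0.49, so the value came from the Input ratio of -2.05, on 6 and 22 reads. For Cpeb4 it was 0.38 (-0.12 to 0.88) and -0.29 (-0.69 to 0.11), and both intervals held 0. Beside 4093 genes whose 8 libraries each had 10 or more reads, which Cpeb2 and Cpeb4 met and Cpeb3 did not, untreated Cpeb2 and Cpeb3 were above 98.4% and 97.4% and Cpeb4 above 67.4%. After LPS they were above 87.3%, 98.3% and 39.4%. The value of Cpeb4 depended on the scaling. With library totals it was 1.21 (0.71 to 1.71) and 0.91 (0.51 to 1.31), and with TMM 0.59 (0.09 to 1.096) and 0.07 (-0.33 to 0.47). Those of Cpeb2 and Cpeb3 lay above 0 under every scaling, between 0.88 and 2.76.

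**Figure D3:**
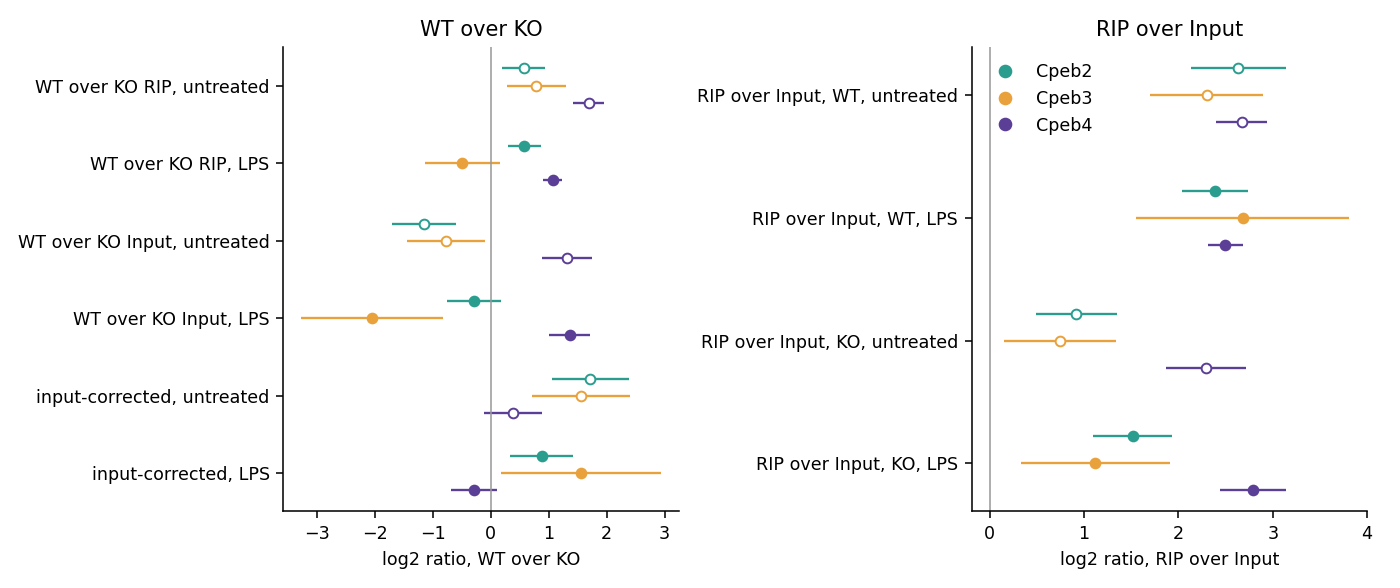
Log2 ratios of Cpeb2, Cpeb3 and Cpeb4 with 95% intervals from the read counts, WT over KO on the left and RIP over Input on the right; open symbols mark untreated and filled symbols LPS. Input-corrected, Cpeb2 and Cpeb3 lie above 0 and Cpeb4 holds 0, and in the KO the RIP over Input ratio of Cpeb4 lies above those of the other two.

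The authors' score gives the highest MACS peak of a RIP against its Input over each region, and 0 where no peak overlapped. In the untreated WT RIP it was 904.71 for Cpeb4, 236.09 for Cpeb2 and 211.45 for the 4 longest regions of Cpeb3. In the LPS WT RIP it was 3100 for Cpeb4 and 1215.55 for Cpeb2, and Cpeb3 had no peak. The untreated KO RIP had no peak over any member. The LPS KO RIP had 181.38 over Cpeb4 and 51.55 over the long region of Cpeb2. Cpeb1 had none in any RIP.

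WT over KO ratios were compared between the LPS and untreated libraries as a difference of log2 ratios. The squared difference over its squared standard error from the read counts was referred to a chi-square distribution. Benjamini-Hochberg adjustment was over 9 tests. With 1 library per group the p-values cover counting error between libraries and cannot test an effect of LPS. In the RIPs the ratio was lower after LPS for Cpeb4, by -0.63 (-0.94 to -0.31, adjusted p-value 0.000980), and for Cpeb3, by -1.28 (-2.09 to -0.46, adjusted p-value 0.0100). For Cpeb2 it differed by 0.02 (-0.45 to 0.48). In the Inputs the difference was 0.04 (-0.51 to 0.60) for Cpeb4, -1.28 (-2.67 to 0.11) for Cpeb3 and 0.86 (0.13 to 1.58, adjusted p-value 0.0617) for Cpeb2. Input-corrected, no difference passed, with -0.67 (-1.31 to -0.03, adjusted p-value 0.0910) for Cpeb4, -0.84 (-1.70 to 0.02) for Cpeb2 and 0.00 (-1.61 to 1.62) for Cpeb3. The level in the WT RIP itself was 0.92-fold (LPS over untreated) for Cpeb4 and 0.91-fold for Cpeb2, and 5.60-fold lower for Cpeb3. The direction for Cpeb4 and Cpeb2 turned with the scaling, since their log2 ratios of -0.12 and -0.13 were 0.40 and 0.39 with library totals, 0.22 and 0.20 with TMM and 0.12 and 0.10 with median-of-ratios scaling. In the KO RIP it was 1.42-fold for Cpeb4, 0.90-fold for Cpeb2 (log2 ratio -0.15, and between 0.03 and 0.09 under the other scalings) and 2.31-fold lower for Cpeb3.

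Several regions of a gene are nested, all starting at the stop codon, and their differences give the reads between annotated ends. Of the 220 reads of Cpeb3 in the untreated WT RIP, 6 overlapped bases 1 to 221, 32 more were added up to base 925, 67 up to base 1890, 111 up to base 2981 and 4 up to base 3563. Per length these were 16.3, 27.3, 41.7, 61.1 and 4.13 CPM per kb. In this library density was thus highest between bases 1891 and 2981 and lower beyond. In the untreated KO Input it was higher between bases 926 and 1890 than between 1891 and 2981, at 24.2 and 10.4 CPM per kb from 31 and 15 reads. In the LPS KO Input it was lower there, at 4.83 and 7.93 from 7 and 13 reads. Both segments had 13 reads in the untreated KO RIP, 10 in the LPS KO RIP and 3 in the LPS WT Input. The densities of 28.8 and 25.5 and of 11.9 and 10.5 in the KO RIPs thus differed only through segment length. In all 8 libraries at least 91.7% of the Cpeb3 reads lay within the first 2981 bases, which are 83.5% of the length. The last 582 bases before base 3563 had from 0 to 4 reads, and of the 6 consensus CPEs of Cpeb3 2 lie beyond base 2981. A read that spans an annotated end counts in the inner region, so the boundaries are blurred by up to a read length.

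**Figure D4:**
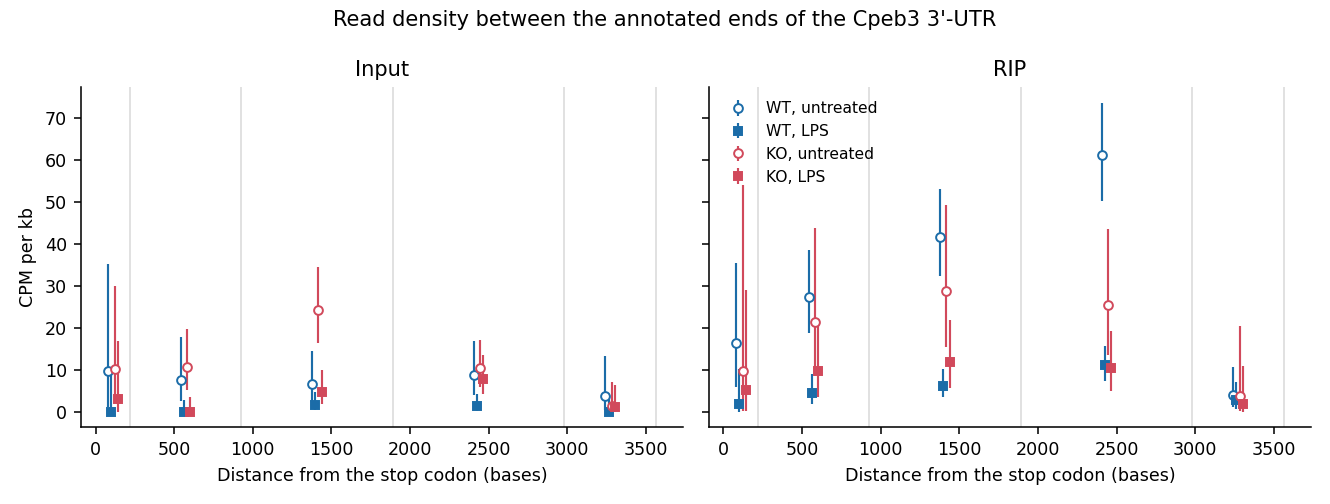
Read density of the Cpeb3 3′-UTR between successive annotated ends (grey lines), as CPM per kb with exact Poisson 95% intervals, in the Inputs and the RIPs; points are shifted slightly sideways. In the untreated WT RIP density reaches 61.1 CPM per kb between bases 1891 and 2981 and is 4.13 beyond.

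The share of a gene's reads in its inner region was compared between libraries with two-sided Fisher's exact tests, 36 in all, with Benjamini-Hochberg adjustment. It does not depend on library scaling. For Cpeb2 the first 1076 bases, 28.5% of the length, held 23.5% (19.5 to 28.1, Wilson 95% interval) and 24.8% (21.3 to 28.7) of the reads in the WT RIPs and 23.9% and 21.7% in the KO RIPs. In the WT Inputs they held 12.1% untreated and 14.9% after LPS, and in the KO Inputs 19.6% and 13.9%. The lowest adjusted p-value for RIP against Input was 0.436. Of the 24 consensus CPEs of Cpeb2, 4 lie in those 1076 bases. For Cpeb3 the first 1890 bases held 73.3% (61.0 to 82.9) of the reads of the untreated KO Input and 36.4% (19.7 to 57.0) of those of the LPS KO Input, with an adjusted p-value of 0.0688. In the WT Inputs they held 54.2% and 50%, from 24 and 6 reads.

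For Cpeb4 the 45 bases next to the stop codon form the shorter region, which holds none of its 17 consensus CPEs. They were touched by 10.1% (6.97 to 14.4) of the reads of the WT Input after LPS but by 3.91% (3.13 to 4.87) of those of the WT RIP, an odds ratio of 0.36 with an adjusted p-value of 0.00335 (Fisher's exact test). Untreated, the shares were 8.26% and 3.09%, with an adjusted p-value of 0.0893. In the KO they were 11.6% (Input) and 4.17% (RIP) untreated and 3.80% and 5.00% after LPS, from 3 to 16 reads in the 45 bases. Reads were 100 bases long, so those over a region of 45 bases also cover coding sequence or the next part of the 3′-UTR, and a density per kb was not compared.

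Cpeb4 was the only member with at least 50 reads in all 8 libraries, and its pattern was set against 1082 other genes that met the same limit. Likeness was the root mean square difference in log2 CPM over the 8 libraries, each gene centred on its mean. Among the 5 closest genes were Fam120a at 0.77, and Fam63b, Pum2, which encodes a Pumilio RNA-binding protein, and Tmem30a, a subunit of lipid flippases, each at 0.78. Pum2 had 848 and 1036 reads in the WT RIPs, untreated and after LPS, and 144 and 225 in the KO RIPs. Its WT Inputs had 110 and 181 reads and its KO Inputs 184 and 159. These are raw reads from libraries of unequal depth and not levels. The totals used for scaling were 1665914 and 2492300 in the WT RIPs and 467696 and 871482 in the KO RIPs. The likeness values are on a log2 scale and describe 8 libraries. Their spread over the other genes is not given here, so the closest genes need not share the pattern of Cpeb4.

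The partners of the CPEB proteins were given by a list of 20 genes of cytoplasmic polyadenylation and repression. Of the 16 tested in the WT over KO RIP comparison untreated, 4 were called higher and 0 lower, and after LPS 3 of 15 were called higher and 0 lower. These are to be read beside the 6.91% and 11.0% of all genes. The list was chosen with earlier results of these data known, so a difference from all genes is a description and not a test. The median log2 ratio over the list was 0.45 and 0.59, beside -0.10 and -0.04 over all genes. Cpsf4, a subunit of the factor that binds the polyadenylation hexamer, had 90 and 6 reads untreated and 120 and 15 after LPS, with log2 ratios of 1.87 (0.76 to 2.98) and 1.403 (0.65 to 2.16). Lsm14a, a component of processing bodies, had 487 and 71 reads and 747 and 151 reads, with ratios of 0.93 (0.57 to 1.29) and 0.78 (0.53 to 1.03). Gsk3b, a kinase, was at 0.61 (0.34 to 0.89) and 0.55 (0.33 to 0.77). Tob2, which recruits the CCR4-NOT deadenylase, was called untreated only, at 0.83 (0.46 to 1.197) from 436 and 68 reads. Whether its ratios differed between the treatments was not tested. No member of the list was called higher in the WT than in the KO Inputs.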

How the data were processed

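Read counts per 3′-UTR in 16 samples were analysed. The samples are 8 libraries on lanes 7 and 8, summed by the authors in 1 column each. The authors aligned 100-base reads to mm10 with Bowtie2 2.2.2, removed duplicates, and deposited counts over Ensembl 3′-UTRs. The deposited RPKM values served only to recover library totals, the deposited score is the highest MACS 1.4.2 peak score, and the deposited lengths are in bases. The authors' fold changes and p-values were not used. Of 31117 rows, 495 without a symbol (0.902% to 1.04% of the summed counts) were left out, and 30622 rows gave 26892 distinct regions. A read over several isoform regions counts in each, and the library kit does not mark strand. The members and lists were chosen with earlier results of these data known.

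Pearson chi-square tests (two-sided, scipy 1.17.1) compared 10 pairs of libraries over all regions whose reads in both summed to 10 or more, scaled to reads of rows with a symbol, with 1 read added to ratios. Where neither library exceeded 3 reads the ratio was left out, and a count of 0 was taken to allow 3 reads. Alternatives were library totals, TMM, median-of-ratios scaling, at least 1 read, 0.1 reads added, Benjamini-Hochberg adjustment, and the exact test of edgeR 4.0.16 with a preset variation of 0.4. The tests were tested on simulated data. Named genes were the members, the 5 genes closest to any member with at least 50 reads in every library, and list genes called in the WT over KO RIPs. One of those closest genes and 1 sequence window are not reported here. Intervals cover counting error only.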

Additional observations from a re-analysis of the deposited data

Results flagged for a closer look

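The WT over KO RIP ratio of Cpeb3 differed between treatments by -1.28 on the log2 scale (LPS minus untreated), by a chi-square test of the difference on the read counts. It was 0.79 untreated, from 220 and 35 reads, and -0.49 after LPS, from 58 and 28 reads. The difference was -0.98 with library totals, -1.18 with TMM and -1.22 with median-of-ratios scaling. The difference in the Inputs was also -1.28, with a wider interval (-2.67 to 0.11), and input-corrected it was 0.00.

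The WT over KO RIP ratio of Cpeb4 differed by -0.63 in the same test. It was 1.69 untreated and 1.07 after LPS, and the difference was -0.33 with library totals, -0.53 with TMM and -0.57 with median-of-ratios scaling. The Cpeb4 level of the KO RIP was 257 CPM untreated and 367 CPM after LPS, and that of the WT RIP was 836 and 770 CPM. The summed counts of rows with a symbol, set against the library total, were 27.3% and 31.8% in the KO RIPs, untreated and after LPS. In the WT RIPs they were 48.9% and 70.1%. The part of this scaling in the differences was not tested.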

How the results depend on the processing

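With 1 library per group, genotype cannot be told apart from library preparation or from what the numbers 73 and 76 stand for. The tests cover counting error. No paired analysis was possible because each group had 1 library. Of 124 log2 ratios of a member under other scalings or with 0.1 reads added, 116 kept their direction and call. With library totals Cpeb3 reversed in the WT over KO RIPs after LPS (0.65) and in the untreated KO RIP over Input (-0.024). Untreated WT over KO RIPs called 3 members in place of 1 with library totals, TMM or Benjamini-Hochberg adjustment. Apart from the exact test of edgeR, the shares of all genes called under the alternatives are not given here. The untreated KO RIP over Input called 1 (Cpeb4) in place of 2 with library totals, TMM and the exact test of edgeR. That test called 0 members in the 4 WT over KO comparisons, where it called from 8 to 120 of all genes tested. In the LPS KO RIP over Input it called 1 member in place of 3, beside 253 of 7876 genes. Untreated WT over KO Input called 3 in place of 2 with 0.1 reads added (Cpeb3 added), and LPS KO RIP over Input 2 in place of 3 with library totals (Cpeb3 lost). LPS over untreated Input called 2 in place of 1 in the WT with at least 1 read (Cpeb1 added, from 0 and 3 reads) and in the KO with 0.1 reads added or Benjamini-Hochberg adjustment (Cpeb2 added). The input-corrected ratio of Cpeb4 was 1.21 (library totals) and 0.59 (TMM) untreated, with intervals above 0, and turned after LPS to 0.91 and 0.070. The scaling itself sets these shifts, since it adds the same value to every gene. The cause of the other changes was not tested. All 36 comparisons of shares kept their call when the shorter region was set against the sum of both. Cpeb1, with 0 to 9 reads, is limited by depth.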

Other observations

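In the Inputs, the list of 20 polyadenylation genes held 3 genes called lower and 0 higher after LPS in each genotype, of 13 tested in the WT and 12 in the KO. In the WT these were Parn, a poly(A)-specific ribonuclease (-1.37, from 18 untreated and 14 LPS reads), Tob2 (-0.77, from 104 and 125 reads) and Aurka, a mitotic kinase (-2.69, from 18 and 5 reads). In the KO they were Tob2 (-0.53), Aurka (-1.99, from 27 and 7 reads) and Gsk3b (-0.66). These are beside 17.0% and 20.5% of all genes called lower, and the list was chosen with earlier results of these data known. Tob2 was also called lower in the WT than in the KO Inputs, at -0.96 (-1.28 to -0.64) untreated and -1.19 (-1.51 to -0.88) after LPS, and was the only gene of the list called in those comparisons. Parn and Aurka were named after their values were seen.

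A separate region of Cpeb3, of 184 bases at chr19:37054062-37054245 on the - strand, had 1 read in the LPS WT Input and 0 in the other 7 libraries.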
